A study of Mus musculus with 9 samples.

Results

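The keratins are the intermediate filament proteins of epithelial cells. All genes of the deposited count table whose symbol is Krt followed by a number and at most 1 letter were taken, which gave 50 of 33924 genes. Keratin filaments are built from pairs of a type I and a type II keratin, and epithelia are told apart by the pairs they make. Krt8 and Krt18, with Krt7 and Krt19, are known from simple epithelia such as the thyroid follicle, Krt5 and Krt14 from the basal cells of stratified epithelia, and other members from suprabasal layers, hair root sheaths and the hair shaft. By these known roles, 6 genes were placed with the simple keratins (Krt7, Krt8, Krt18, Krt19, Krt20 and Krt23), 18 with the stratified ones, 8 with the hair root sheath and companion layer and 14 with the hair shaft. The other 4 (Krt24, Krt42, Krt80 and Krt222) were given no class.

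RNA-seq had been done on whole mouse thyroid in 3 groups of 3 libraries: tissue labelled Smarcb1 KO, tissue labelled Arid2 KO and tissue labelled wild type. Smarcb1 and Arid2 encode subunits of the SWI/SNF complexes, which move nucleosomes. The labels name no Cre driver, promoter, strain or age, and no other allele in any group, and do not state whether each library came from a separate animal, so p-values measure the spread between these libraries, which may be partly technical. Each title holds its own identifier, with no statement on what it identifies or on pooling. Replicate numbers here only name libraries.

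Total counts per library lay between 33666251 and 89553766, with the deepest libraries in the Arid2 KO group. Smarcb1 had 47.5, 53.7 and 59.4 CPM (counts per 1e+06 reads, scaled with TMM factors) in libraries labelled Smarcb1 KO, against 65.9, 71.7 and 69.3 CPM in wild type. The groups did not overlap, but the difference was not called (log2 fold change -0.36, SE 0.11, edgeR adjusted p = 0.0651). Arid2 had 94.6, 77.7 and 59.9 CPM in libraries labelled Arid2 KO, against 68.9, 75.0 and 67.8 CPM in wild type, and so was not lower there. Gene-level counts do not show whether single exons were lost, and groups are named by their labels throughout. Tg, the thyroglobulin precursor of thyroid hormone, took 24.1% to 30.8% of counts in every library.

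Single libraries of both KO groups stood apart by thymus markers, and markers of other cell types were uneven in wild type too. All 12 thyroid follicular genes examined were counted in all 9 libraries. Rag1, made by developing lymphocytes of the thymus, had 52.6 CPM in Smarcb1 KO replicate 2 and 502.0 CPM in Arid2 KO replicate 1, and at most 0.145 CPM in the other 7 libraries. The 3 parathyroid markers Pth, Gcm2 and Casr summed to between 6092 and 16992 CPM in Smarcb1 KO libraries, 10.6 to 1581 CPM in Arid2 KO libraries and 8.16 to 4320 CPM in wild type. The 3 C-cell markers summed to 7229 to 9178 CPM in Smarcb1 KO libraries and 2691 to 3274 CPM in Arid2 KO libraries. In wild type they summed to 3252, 9634 and 1897 CPM. Sums of 3 skeletal muscle markers were 49.9 to 649.9 CPM, 228.0 to 1056 CPM and 8.68 to 632.9 CPM in that order of groups. Results that rest on the 2 libraries with thymus markers are given with and without them.

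Of the 50 keratins, 46 had at least 1 count, 17 had a count in all 9 libraries, and 6 were above 1 CPM in all 9. Those 6 were Krt8, Krt7, Krt18, Krt19, Krt10 and Krt80. The simple keratins made up nearly all keratin reads: 97.0%, 87.6% and 95.5% of keratin counts in the Smarcb1 KO libraries, 92.2%, 97.1% and 93.2% in the Arid2 KO libraries, and 96.1%, 94.6% and 93.8% in wild type. Summed over all members, keratin levels were 471.1, 829.0 and 412.4 CPM in Smarcb1 KO, 622.9, 676.4 and 659.4 CPM in Arid2 KO and 699.8, 758.3 and 698.8 CPM in wild type. The sum was thus most uneven among the Smarcb1 KO libraries, of which replicate 2 lay above every other library and the other 2 below all of them.

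**Figure D1:**
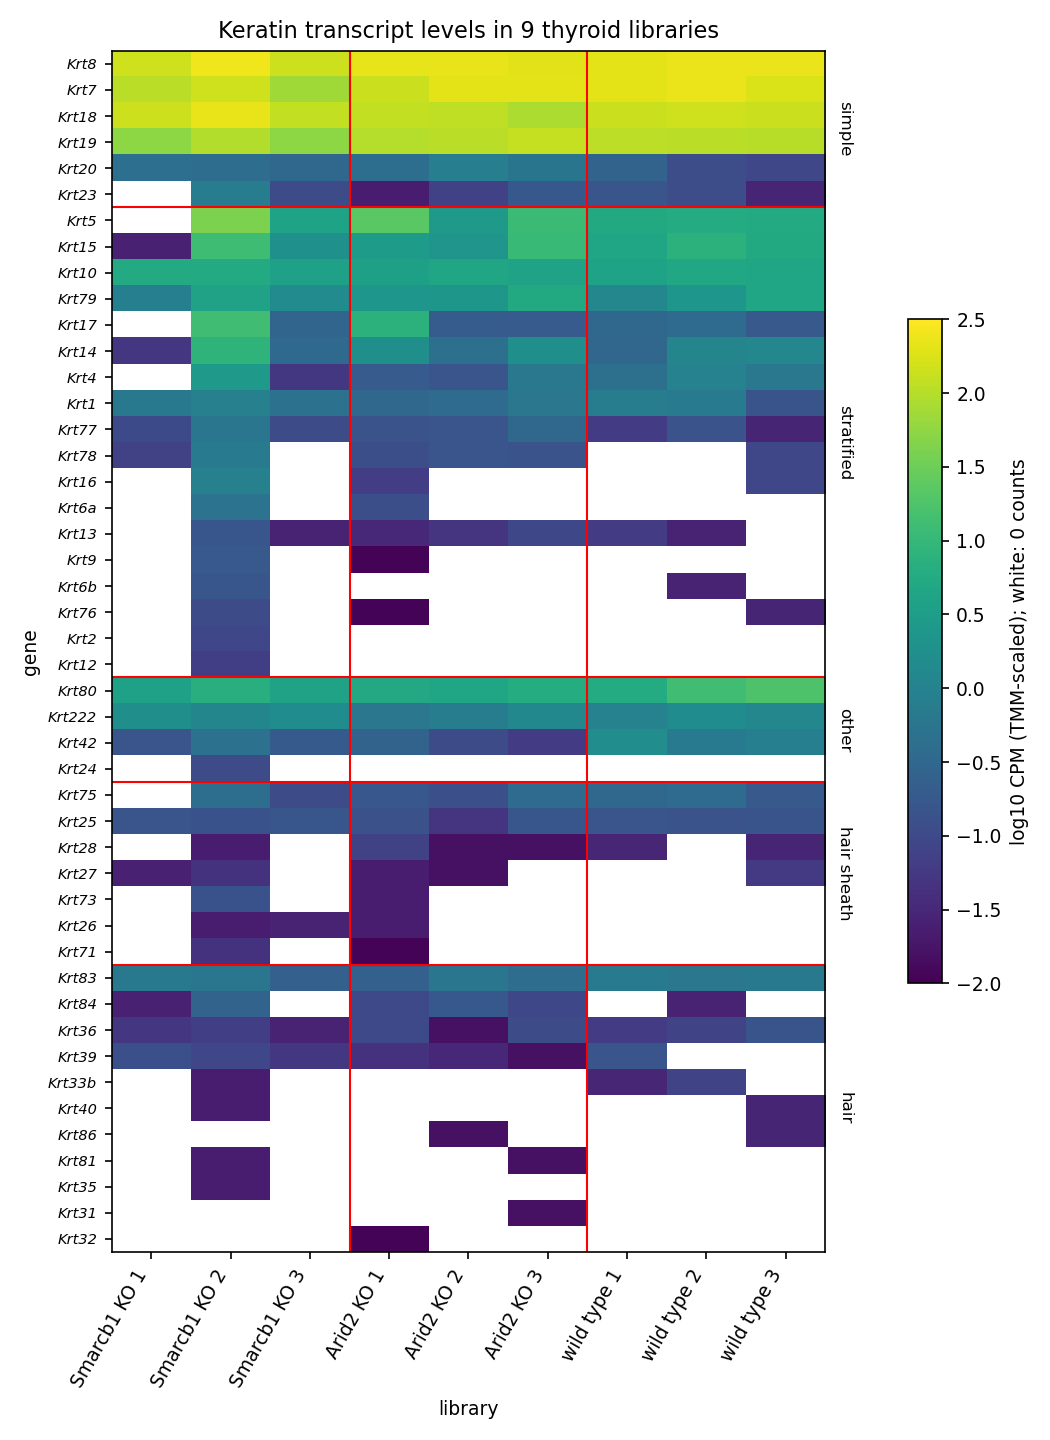
Levels of the 46 keratins with at least 1 count, in rows by class, in the 9 libraries, in columns by group, as log10 CPM (colour bar, white for 0 counts). The rows of Krt8, Krt7, Krt18 and Krt19 are high in every column, while most stratified and hair rows are low, patchy or empty, with the fullest column in Smarcb1 KO replicate 2 (43 of the 50 keratins with a count).

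Compared per kilobase of the longest annotated transcript and averaged over all 9 libraries, Krt8 and Krt18 had the highest levels, at 105.5 and 96.4 CPM per kb. Krt19 followed at 60.8 and Krt7 at 40.6 CPM per kb. This order rests on the transcript lengths used, 4.094 kb for Krt7 beside 1.958 kb for Krt8, 1.576 kb for Krt19 and 1.437 kb for Krt18. Without division by length, Krt7 (mean 166.1 CPM) lay between Krt8 (206.5 CPM) and Krt18 (138.5 CPM), with Krt19 at 95.8 CPM. Krt5, the highest stratified keratin, averaged 5.01 CPM per kb, below Krt7 by a wide step. Between Krt8 and Krt18 the order was not the same in every group: Krt18 was above Krt8 per kb in the 3 Smarcb1 KO libraries (Krt18 99.6, 155.2 and 85.5, Krt8 76.6, 131.6 and 73.6 CPM per kb). In the 6 libraries of the Arid2 KO and wild-type groups Krt8 was the higher one, with 100.2 to 121.6 CPM per kb for Krt8 and 60.8 to 103.8 CPM per kb for Krt18. That switch in order also rests on the lengths used. Before division by length Krt8 was above Krt18 in every library, at a ratio of 1.05 to 1.17 in Smarcb1 KO. All type I keratins but Krt18 map to chromosome 11 (27 genes), and the type II keratins map with Krt18 to chromosome 15 (23 genes), where Krt8 and Krt18 are adjacent in the keratin order.

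A test of all 17079 genes that passed the filter on low counts included 18 keratins: 5 of 6 simple, 8 of 18 stratified, 1 of 8 sheath, 1 of 14 hair and 3 of 4 without a class. The 3 comparisons share groups, with wild type in 2 of them, so their values are not independent. No keratin was called in any comparison by edgeR's quasi-likelihood test at a Benjamini-Hochberg adjusted p under 0.05. The share of all genes called was 7.9% for Smarcb1 KO against wild type (2.15% higher, 5.74% lower). It was 16.3% for Smarcb1 KO against Arid2 KO (6.95% higher, 9.32% lower) and 0.556% for Arid2 KO against wild type (0.234% higher, 0.322% lower). At an unadjusted p under 0.05 the counts were 5, 3 and 3 of 18 keratins in that order of comparisons. The share of all genes at an unadjusted p under 0.05 was not computed. Such counts, here and for the gene lists below, therefore do not show more or fewer differences than among all genes. With DESeq2's Wald test, 3 keratins were called lower for Smarcb1 KO against wild type, 2 lower and 1 higher for Smarcb1 KO against Arid2 KO, and 2 lower for Arid2 KO against wild type. DESeq2 called 16.3%, 25.4% and 5.2% of all genes in these comparisons.

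**Figure D2:**
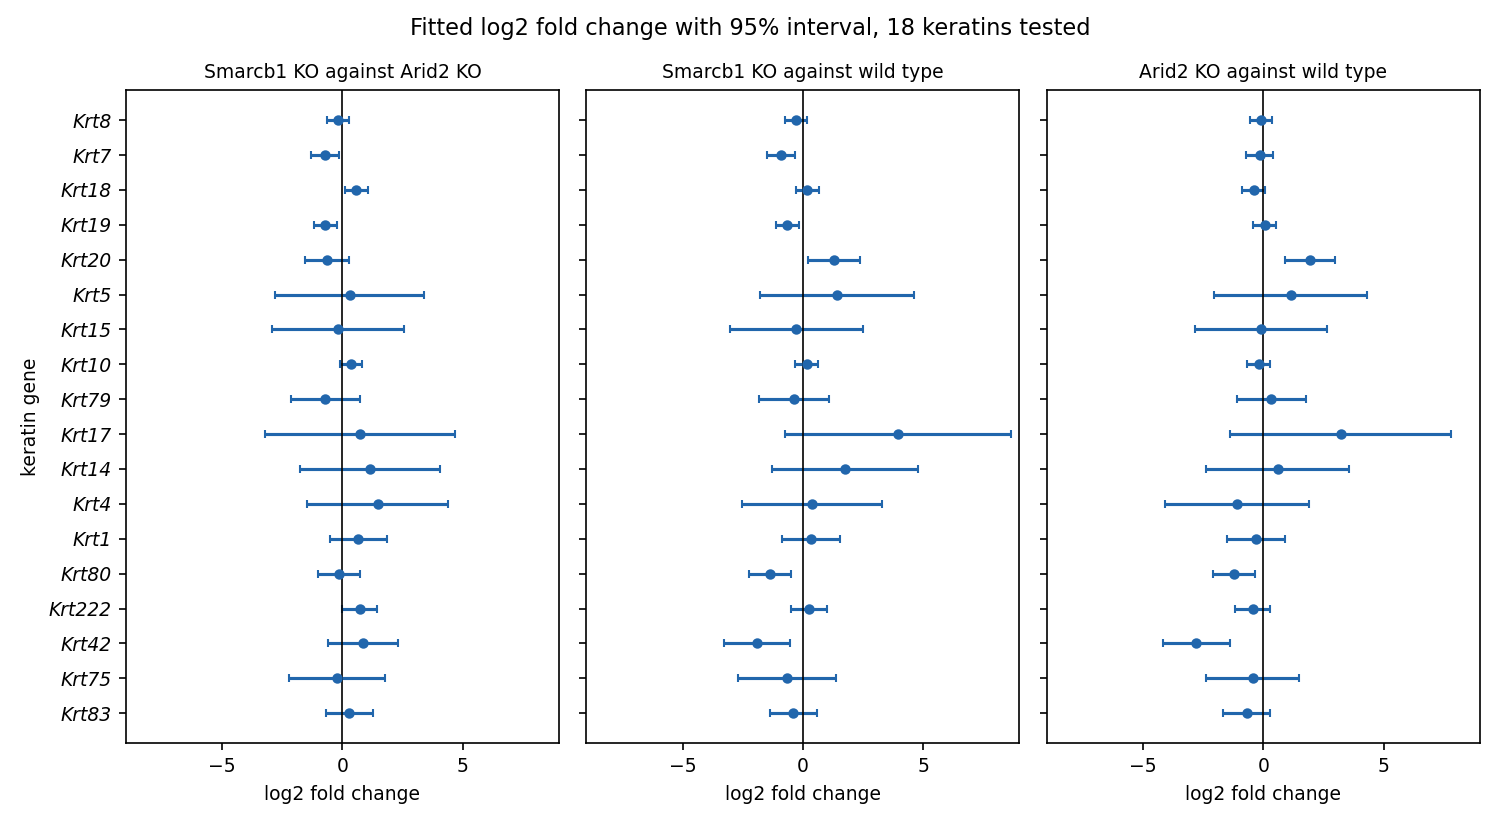
Fitted log2 fold changes of the 18 tested keratins (points) with 95% intervals (bars) in the 3 comparisons, simple keratins on top. Intervals are narrow for the abundant Krt8, Krt7, Krt18 and Krt19, and span several log2 units for Krt5, Krt15, Krt17, Krt14 and Krt4.

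Krt7, a type II keratin of ductal and glandular epithelia, had its lowest mean in tissue labelled Smarcb1 KO. It had 109.2, 148.2 and 71.4 CPM in Smarcb1 KO libraries, 140.4, 207.8 and 203.0 CPM in Arid2 KO libraries and 210.1, 232.1 and 172.8 CPM in wild type. All 3 Smarcb1 KO libraries lay below all 3 wild-type libraries, and replicate 2 overlapped with Arid2 KO replicate 1. The log2 fold change was -0.90 (SE 0.26, 95% interval -1.49 to -0.32, edgeR adjusted p = 0.0638) for Smarcb1 KO against wild type and -0.74 (SE 0.26, adjusted p = 0.0764) against Arid2 KO. Arid2 KO and wild type overlapped (-0.16, SE 0.26, edgeR adjusted p = 0.82). Gm671 overlaps Krt7 on the other strand, and with the strand setting of the counting unknown, its reads may be included. In whole tissue, fewer cells that make a keratin and less of its RNA per cell cannot be told apart.

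Krt19, a short type I keratin of ducts and simple epithelia, was also lowest in Smarcb1 KO. It had 54.2, 96.1 and 55.0 CPM in Smarcb1 KO libraries, 100.04, 108.7 and 127.3 CPM in Arid2 KO libraries and 110.9, 106.5 and 103.6 CPM in wild type. All 3 Smarcb1 KO libraries were below every library of the other groups. The log2 fold change was -0.64 (SE 0.21, 95% interval -1.12 to -0.17, edgeR adjusted p = 0.0891) against wild type and -0.71 (SE 0.21, interval -1.19 to -0.23, adjusted p = 0.0503) against Arid2 KO. With DESeq2 both differences passed the threshold (adjusted p = 0.027 and 0.0119), as did both for Krt7 (0.00637 and 0.0258).

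Krt8, the main type II keratin of simple epithelia, had 149.9, 257.7 and 144.2 CPM in Smarcb1 KO libraries, 212.0, 220.4 and 196.1 CPM in Arid2 KO libraries and 210.9, 228.9 and 238.1 CPM in wild type. The Smarcb1 KO group spanned the whole range, with replicate 2 highest and replicates 1 and 3 lowest of all 9. No difference was called (Smarcb1 KO against wild type -0.30, SE 0.21, 95% interval -0.76 to 0.17, edgeR adjusted p = 0.365). Its counts are uncertain, since 26.9% of the 50-base stretches of its transcript also occur in another gene, mostly the pseudogene Krt8-ps, and Gm36026 overlaps it on the other strand.

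Krt18, the type I partner of Krt8, had 143.1, 223.0 and 122.8 CPM in Smarcb1 KO libraries, 121.2, 118.7 and 87.3 CPM in Arid2 KO libraries and 140.5, 149.2 and 140.6 CPM in wild type. Every Smarcb1 KO library was above every Arid2 KO library, and every Arid2 KO library below every wild-type one. Neither gap was called by edgeR: the log2 fold change was 0.58 (SE 0.22, interval 0.09 to 1.07, adjusted p = 0.0911) for Smarcb1 KO against Arid2 KO and -0.40 (SE 0.22, interval -0.88 to 0.09, adjusted p = 0.433) for Arid2 KO against wild type. DESeq2 called the first of these (adjusted p = 0.044).

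**Figure D3:**
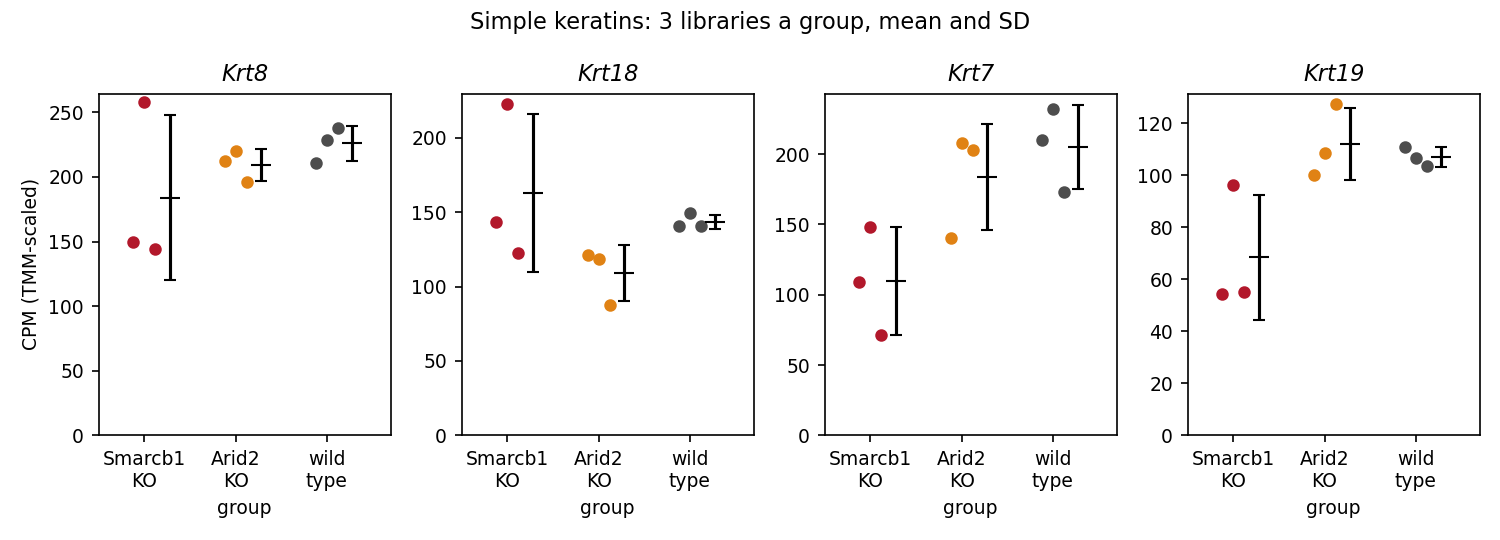
CPM of the 4 abundant simple keratins in each library (points, from left to right replicates 1 to 3) with the group mean and SD (bars). Krt7 and Krt19 sit lowest in Smarcb1 KO, and in each of the 4 genes the highest Smarcb1 KO point is replicate 2.

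Leaving out Smarcb1 KO replicate 2, 1 of the 2 libraries with thymus markers, moved Krt7, Krt19 and Krt8 over the threshold, but not Krt18. Krt7 then had a log2 fold change of -1.18 (SE 0.25, edgeR adjusted p = 0.022) and Krt19 of -0.97 (SE 0.12, adjusted p = 0.0053) for Smarcb1 KO against wild type. Krt8 was then called as well, at -0.62 (SE 0.11, adjusted p = 0.0132), while Krt18 was at -0.11 (SE 0.15, adjusted p = 0.654). Against Arid2 KO, Krt19 (-1.04, SE 0.12), Krt7 (-1.02, SE 0.24) and Krt8 (-0.51, SE 0.11) were called lower (edgeR adjusted p = 0.00339, 0.0217 and 0.0152). Krt18 was then at 0.29 (SE 0.15, edgeR adjusted p = 0.192), against 0.58 with all libraries. Over all genes, 14.7% were called without that library for Smarcb1 KO against wild type and 25.5% for Smarcb1 KO against Arid2 KO. With Arid2 KO replicate 1 also left out, the same 3 simple keratins were called lower in both comparisons, where 12.6% and 21.9% of all genes were called. The 2 Smarcb1 KO libraries then left had the lowest stratified keratin sums of all 9 (7.53 and 12.4 CPM) and at most 0.189 CPM over the 4 thymocyte markers.

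The parathyroid sum was higher in all 3 Smarcb1 KO libraries than in the other 6. With the mean log2 level of Pth, Gcm2 and Casr as a covariate, Krt7 was at -0.94 (SE 0.32, edgeR adjusted p = 0.189) and Krt19 at -0.55 (SE 0.26, adjusted p = 0.316) for Smarcb1 KO against wild type. When the trend of each library over GC content was removed, Krt7 was at -0.89 (SE 0.24) and Krt19 moved to -0.32 (SE 0.13, adjusted p = 0.0991 and 0.218 by edgeR). Krt8 moved with it from -0.30 to -0.009 for Smarcb1 KO against wild type. Against Arid2 KO, Krt8 moved from -0.19 to 0.19 and Krt19 from -0.71 to -0.30. Krt18 under that correction was called higher in Smarcb1 KO than in Arid2 KO (0.91, SE 0.19, edgeR adjusted p = 0.0281). The share of all genes called under that correction is not given here, so the call is not set against it.

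Ratios within a library do not depend on its scaling factor. They were chosen after the counts had been seen, and 10 pairs gave 24 comparisons. The ratio of Krt8 to Krt18 counts was 1.05, 1.16 and 1.17 in Smarcb1 KO libraries, 1.75, 1.86 and 2.25 in Arid2 KO libraries and 1.50, 1.53 and 1.69 in wild type. The 3 groups did not overlap, and Smarcb1 KO replicate 2 lay with its own group. Krt19 to Krt18 was 0.379, 0.431 and 0.448 in Smarcb1 KO libraries, 0.826, 0.916 and 1.46 in Arid2 KO libraries and 0.790, 0.714 and 0.737 in wild type, again without overlap. For each of these 6 comparisons the exact two-sided permutation p was 0.1, the smallest that 3 against 3 allows, and 0.3 after Benjamini-Hochberg adjustment over the 24. Both ratios hold Krt18, so they are not independent. In the order Arid2 KO against wild type, Smarcb1 KO against wild type and Smarcb1 KO against Arid2 KO, other pairs gave these permutation p-values. They were 0.4, 0.1 and 0.1 for Krt8 to Krt19, and 0.7, 0.2 and 0.2 for Krt7 to Krt8. Against Tg they were 0.6, 0.6 and 0.7 for Krt8, and 0.2, 0.7 and 0.2 for Krt18. The share of other gene pairs without overlap was not computed. The GC content of the transcripts is 57.1% for Krt8, 56.4% for Krt18 and 57.6% for Krt19, and its part in the ratios was not tested. The shared stretches and the antisense overlap of Krt8 also bear on its ratios. Krt7 to Krt19 overlapped between all groups, with means of 1.62 ± 0.37 in Smarcb1 KO, 1.64 ± 0.26 in Arid2 KO and 1.91 ± 0.26 in wild type (SD, n = 3 each).

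**Figure D4:**
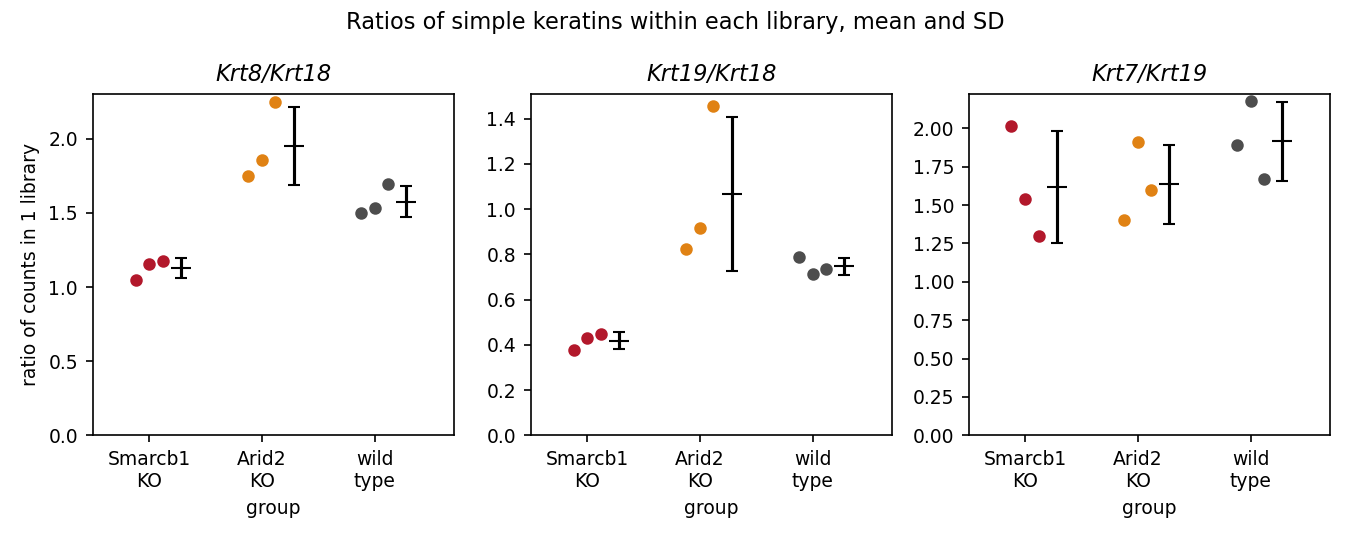
Ratios of counts of 2 simple keratins in the same library (points), with the group mean and SD (bars). Krt8/Krt18 and Krt19/Krt18 are lowest in the 3 Smarcb1 KO libraries with no overlap between groups, while Krt7/Krt19 overlaps.

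Krt20, known from gut and urothelial surface cells, was near the detection limit. It had 0.433, 0.407 and 0.325 CPM in Smarcb1 KO libraries, 0.418, 0.845 and 0.562 CPM in Arid2 KO libraries and 0.273, 0.114 and 0.0890 CPM in wild type, where it rested on 9, 4 and 3 reads. Both KO groups lay above wild type without overlap, but neither difference was called (log2 fold changes 1.29, SE 0.48, and 1.92, SE 0.46, edgeR adjusted p = 0.12 and 0.104). Krt23, found in some simple epithelia, did not pass the filter. It had 36 of its reads in Smarcb1 KO replicate 2 and at most 11 in any other library.

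Among all 18 tested keratins, groups did not overlap for 1 higher (Krt20) and 3 lower (Krt7, Krt19 and Krt42) in Smarcb1 KO against wild type, where 17.1% of all tested genes were higher and 16.7% lower without overlap. For Smarcb1 KO against Arid2 KO there was 1 higher (Krt18) and 1 lower (Krt19), against 18.3% and 20.5% of all genes. For Arid2 KO against wild type there was 1 higher (Krt20) and 3 lower (Krt18, Krt42 and Krt83), against 12.9% and 12.6%. As shares of the 18 keratins, 5.56% were higher and 16.7% lower in both comparisons with wild type, and 5.56% were higher and 5.56% lower for Smarcb1 KO against Arid2 KO. The median log2 fold change of the 5 simple keratins was -0.30 for Smarcb1 KO against wild type, where the median of all genes was 0.05.

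The promoters of Krt8, Krt18 and Krt7 are shown because these genes hold most keratin reads. The ratio of the neighbours Krt8 and Krt18 also did not overlap between the groups, at an adjusted permutation p of 0.3. Krt71, a type II keratin of the inner root sheath with 3 reads in all, is shown beside these promoters for contrast. The sequences are the 250 bases before the RefSeq start (GRCm38.p6), 5′ to 3′ on the strand of the gene. They lie at chr15:102004343-102004592 (minus strand), chr15:102027966-102028215 (plus), chr15:101412153-101412402 (plus) and chr15:101743098-101743347 (minus). Capitals mark the letters GGGCGG, known as a GC box, in Krt7 and the letters TATAAA, known as a TATA box, in Krt71. Both were searched on both strands.
Krt8: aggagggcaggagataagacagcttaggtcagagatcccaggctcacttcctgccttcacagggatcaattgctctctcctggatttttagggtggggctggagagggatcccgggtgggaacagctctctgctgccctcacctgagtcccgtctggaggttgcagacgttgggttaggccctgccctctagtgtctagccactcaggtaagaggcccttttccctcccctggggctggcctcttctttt
Krt18: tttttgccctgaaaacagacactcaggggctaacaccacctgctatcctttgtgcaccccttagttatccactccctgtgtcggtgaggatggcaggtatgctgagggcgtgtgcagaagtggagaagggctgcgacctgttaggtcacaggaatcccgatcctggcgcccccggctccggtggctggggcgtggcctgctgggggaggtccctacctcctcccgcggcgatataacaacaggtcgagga
Krt7: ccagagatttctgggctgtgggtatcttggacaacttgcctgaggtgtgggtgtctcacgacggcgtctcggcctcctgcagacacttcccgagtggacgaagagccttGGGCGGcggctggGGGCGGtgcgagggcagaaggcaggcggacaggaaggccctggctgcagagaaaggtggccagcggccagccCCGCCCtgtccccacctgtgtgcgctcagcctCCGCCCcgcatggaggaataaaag
Krt71: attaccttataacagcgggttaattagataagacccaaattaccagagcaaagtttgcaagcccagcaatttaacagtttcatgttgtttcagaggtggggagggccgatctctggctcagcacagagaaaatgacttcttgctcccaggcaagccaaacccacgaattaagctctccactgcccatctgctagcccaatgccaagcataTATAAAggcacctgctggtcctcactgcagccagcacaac

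The window of Krt7 holds the GC box, which 32.74% of 32851 mouse promoter windows of this length hold, and Krt71 holds the TATA box, which 12.37% hold. The windows of Krt8 and Krt18 hold neither of these letters, nor TGANTCA, a site of AP-1 factors. The TATA box was in 1 of 5 simple entries (Krt20), 3 of 12 stratified, 6 of 7 sheath and 6 of 9 hair entries. These counts include entries whose start matches no annotated transcript of the gene, Krt20 among them, while 28 of 35 entries match one. Of the 50 keratins, 34 had an entry (35 entries in all), and Krt19 was not among them. The matches are letters in a window and were not tested for use by a factor in these tissues.

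The stratified keratins were low and uneven. Of the 18, all had reads in Smarcb1 KO replicate 2 and 16 had their highest level in that library, while 7 and 10 had reads in Smarcb1 KO replicates 1 and 3, 11 to 15 in Arid2 KO libraries and 10 to 12 in wild type. The share of all genes highest in that library was not computed. Genes with a count numbered 22399 in it, 21588 and 21315 in Smarcb1 KO replicates 1 and 3, and 23228 in Arid2 KO replicate 1. The summed level of the stratified keratins was 7.53, 92.3 and 12.4 CPM in Smarcb1 KO libraries, 41.9, 13.3 and 36.1 CPM in Arid2 KO libraries and 17.0, 24.4 and 22.4 CPM in wild type. Wild-type libraries were the most alike, and each KO group held values on both sides of them.

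Krt5, the type II keratin of basal cells, had 0, 41.3 and 4.06 CPM in Smarcb1 KO libraries, 22.3, 2.77 and 11.8 CPM in Arid2 KO libraries and 5.37, 5.89 and 5.58 CPM in wild type. A count of 0 in Smarcb1 KO replicate 1 allows up to 0.0763 CPM (3 reads, counting error only), far below all other libraries. Its partner Krt14 had 0.0509, 8.49 and 0.352 CPM in Smarcb1 KO libraries, 1.77, 0.454 and 1.77 CPM in Arid2 KO libraries and 0.303, 1.14 and 1.19 CPM in wild type. The highest and the lowest library were the same for both partners. Krt5 shares 8.52% of its 50-base stretches with other genes and Krt14 14.4%, so a few of these reads may belong to a paralogue. Gm44323 overlaps Krt5 on the other strand.

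Krt15, also of basal cells, had 0.0254, 12.7 and 1.79 CPM in Smarcb1 KO libraries, 2.96, 2.25 and 11.2 CPM in Arid2 KO libraries and 4.34, 7.88 and 5.40 CPM in wild type. Krt17, a keratin of skin appendages and stressed epithelium, had 0, 13.4 and 0.298 CPM in Smarcb1 KO libraries, 7.81, 0.203 and 0.193 CPM in Arid2 KO libraries and 0.334, 0.370 and 0.178 CPM in wild type. Krt17 was thus high in the 2 libraries with thymus markers and at most 0.370 CPM elsewhere, while Krt15 was highest in Smarcb1 KO replicate 2 and Arid2 KO replicate 3. In Arid2 KO replicate 1 Krt15 was below all 3 wild-type libraries. No stratified keratin was called, and none of the 8 tested had an unadjusted p under 0.05. Intervals were wide (Krt5 for Smarcb1 KO against wild type 1.43, SE 1.42, 95% interval -1.77 to 4.63, edgeR adjusted p = 0.531).

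**Figure D5:**
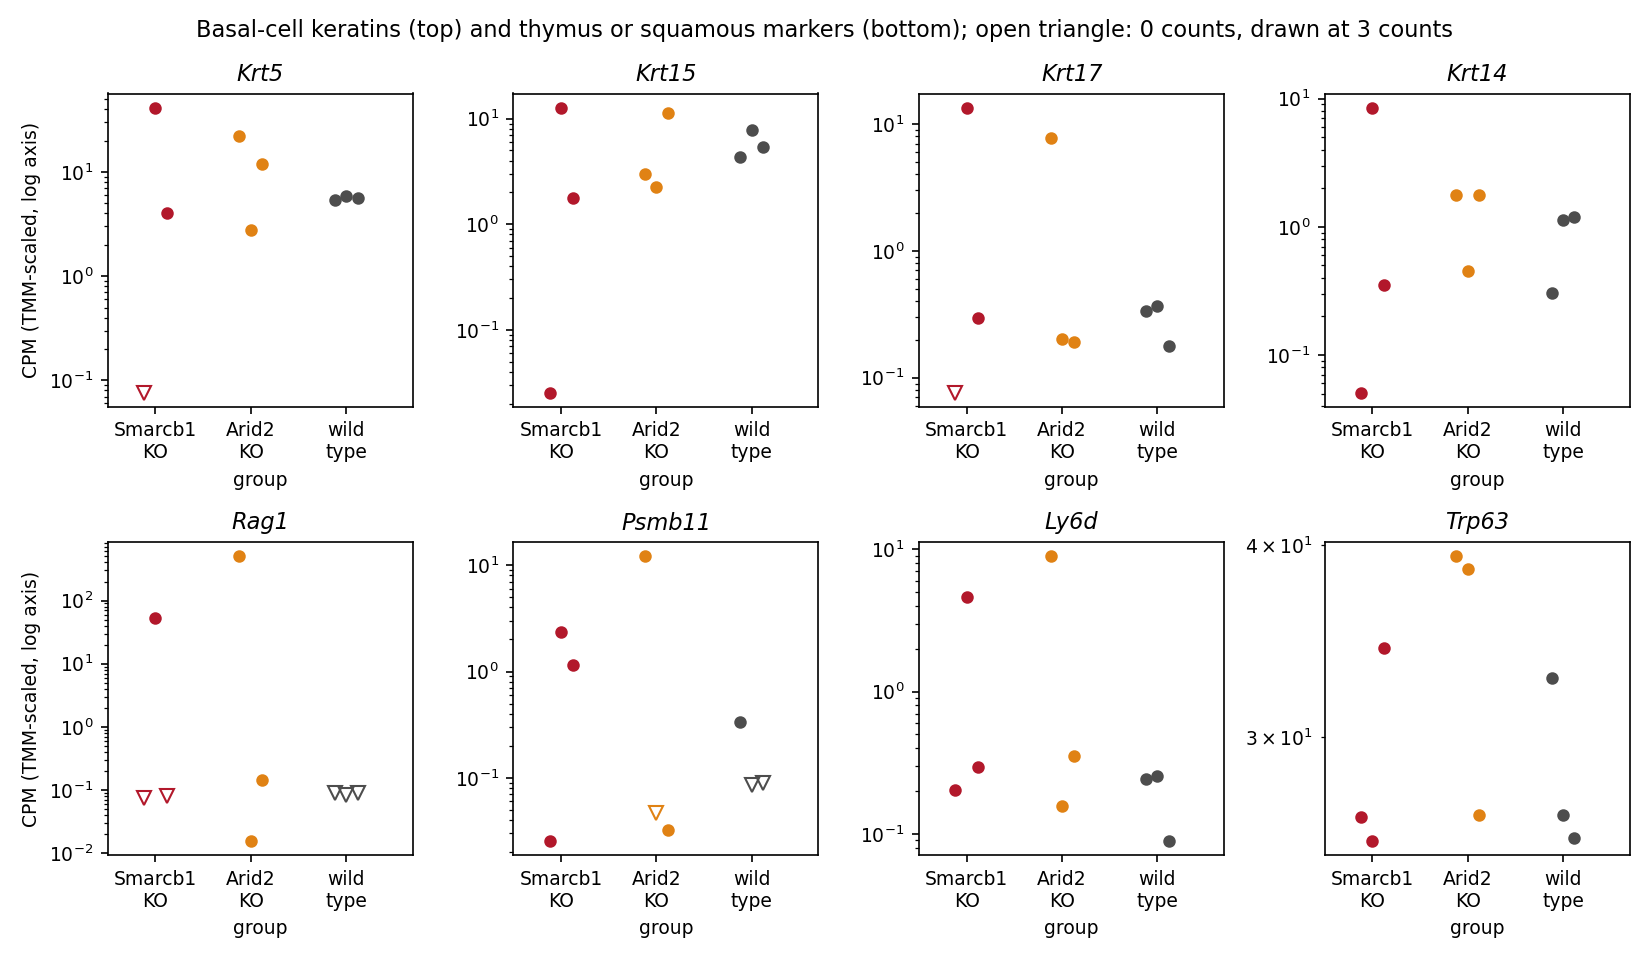
CPM on a log axis in each library (points, from left to right replicates 1 to 3) for 4 basal-cell keratins (top) and 4 markers (bottom), with open triangles for 0 counts drawn at the level of 3 counts. Krt17 is high in the same 2 libraries as Rag1 and Ly6d, and Trp63 lies between 25.7 and 39.3 CPM in all 9.

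Markers of thymic and squamous epithelium were also uneven, and not only in the 2 libraries with thymus markers. Psmb11, a proteasome subunit of cortical thymic epithelium, had 0.0254, 2.35 and 1.16 CPM in Smarcb1 KO libraries, 12.1, 0 and 0.0321 CPM in Arid2 KO libraries and 0.334, 0 and 0 CPM in wild type. The 3 thymic epithelial markers (Foxn1, Psmb11 and Aire) summed to 0.789, 6.52 and 2.81 CPM in Smarcb1 KO libraries, 16.1, 1.56 and 5.24 CPM in Arid2 KO libraries and 1.21, 2.99 and 1.81 CPM in wild type. Foxn1 itself was highest in Arid2 KO replicate 3. Of 24 squamous genes that are not keratins, 23 were in the table, 13 were tested and 0 were called in any comparison by edgeR, with 0, 2 and 1 at an unadjusted p under 0.05 for Smarcb1 KO against wild type, Smarcb1 KO against Arid2 KO and Arid2 KO against wild type. Of the 20 with any count, 11 were highest in Smarcb1 KO replicate 2, 4 in Arid2 KO replicate 1 (Ly6d, Perp, Pkp1 and Trp63) and the other 5 in 5 other libraries. The share of all genes highest in each library was not computed. Sprr1a, a cornified envelope precursor, had 2.31 CPM in Smarcb1 KO replicate 2 and at most 0.0770 CPM elsewhere. Krtdap, made in differentiating keratinocytes, had 2.04 CPM in that library and at most 0.177 CPM elsewhere. The sum over all squamous genes overlapped between the groups (242.7 to 346.6 CPM in Smarcb1 KO, 332.7 to 410.1 CPM in Arid2 KO and 306.8 to 394.7 CPM in wild type), as Calml3 and Perp made up most of the sum. The 5 airway markers summed to 1.02, 5.21 and 0.785 CPM in Smarcb1 KO libraries, 26.2, 23.5 and 61.1 CPM in Arid2 KO libraries and 1.33, 1.88 and 1.31 CPM in wild type. By edgeR, 3 of them (Scgb3a1, Muc5b and Bpifb1) were called higher for Arid2 KO against wild type, where 0.234% of all genes were. The same 3 were called lower for Smarcb1 KO against Arid2 KO, where 9.32% of all genes were. The part of airway epithelium in the keratin levels was not tested.

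Without Smarcb1 KO replicate 2, the fitted log2 fold changes for Smarcb1 KO against wild type were negative for Krt5 (-1.47), Krt14 (-2.12) and Krt17 (-0.99), none of them called. With all libraries they were positive (1.43, 1.76 and 3.95). Krt4, a type II keratin of oesophagus and other uncornified epithelia named here after its values were seen, was then called lower (-4.59, SE 1.09, edgeR adjusted p = 0.0316), where with all libraries it was at 0.37 (SE 1.29, adjusted p = 0.872). It had 0, 2.60 and 0.0541 CPM in Smarcb1 KO libraries, 0.198, 0.156 and 0.626 CPM in Arid2 KO libraries and 0.455, 0.996 and 0.623 CPM in wild type. Its level in Smarcb1 KO replicates 1 and 3 rested on 0 and 2 reads.

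Krt10, Krt1 and Krt79 are keratins of suprabasal and other stratified layers. Krt10, the type I keratin of suprabasal epidermis, had 5.75, 5.57 and 3.79 CPM in Smarcb1 KO libraries, 3.66, 4.37 and 3.87 CPM in Arid2 KO libraries and 4.13, 4.89 and 4.57 CPM in wild type. Its usual partner Krt1, also named after its values were seen, stayed at 0.148 to 0.905 CPM. Krt79, of stratified epithelia and sebaceous ducts, had 0.865, 3.85 and 1.46 CPM in Smarcb1 KO libraries, 2.29, 2.41 and 5.45 CPM in Arid2 KO libraries and 1.21, 2.31 and 4.51 CPM in wild type. Krt10 and Krt79 overlapped between all groups, and Gm11940 overlaps Krt10 on the other strand.

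The stress and hyperproliferation keratins Krt6a, Krt6b and Krt16 did not pass the filter. Krt6a had 23 reads in Smarcb1 KO replicate 2, 11 in Arid2 KO replicate 1 and 0 in the other 7 libraries. Krt16 had 41 reads in Smarcb1 KO replicate 2 (0.928 CPM), 6 in Arid2 KO replicate 1 (0.0660 CPM), 3 in wild-type replicate 3 (0.0890 CPM) and 0 in the other 6. Krt6a and Krt6b share 45.5% and 50.1% of their 50-base stretches with other genes, and Krt16 37.6%, so their reads cannot be assigned with certainty. The other 7 untested stratified members (Krt2, Krt9, Krt12, Krt13, Krt76, Krt77 and Krt78) stayed below 1 CPM in every library.

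Krt80 and Krt42 had the lowest fold changes against wild type among keratins without a class. Krt80, a type II keratin of many epithelia, had 3.77, 6.74 and 3.84 CPM in Smarcb1 KO libraries, 5.17, 4.49 and 6.22 CPM in Arid2 KO libraries and 5.88, 13.3 and 17.7 CPM in wild type. Its log2 fold change was -1.36 (SE 0.39, edgeR adjusted p = 0.0643) for Smarcb1 KO against wild type and -1.22 (SE 0.39, adjusted p = 0.188) for Arid2 KO against wild type. Wild-type replicate 1 overlapped with both KO groups, and without it the first difference was called (-1.70, SE 0.30, edgeR adjusted p = 0.038). The share of all genes called without that library is not given here. DESeq2 called both differences (adjusted p = 0.00518 and 0.0314), and Gm35853 overlaps Krt80 on the other strand.

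Krt42, a type I keratin of mouse, had 0.153, 0.498 and 0.189 CPM in Smarcb1 KO libraries, 0.275, 0.110 and 0.0643 CPM in Arid2 KO libraries and 1.64, 0.740 and 0.860 CPM in wild type. Wild type was above both KO groups without overlap, on 54, 26 and 29 reads. The log2 fold change was -1.92 (SE 0.61, edgeR adjusted p = 0.0836) for Smarcb1 KO and -2.78 (SE 0.62, adjusted p = 0.0918) for Arid2 KO against wild type. DESeq2 called the Arid2 KO difference (adjusted p = 0.00623). Without Smarcb1 KO replicate 2, Krt42 (-2.64, SE 0.67) and Krt80 (-1.69, SE 0.42) were called lower for Smarcb1 KO against wild type (edgeR adjusted p = 0.0378 and 0.0357). Krt222, a keratin-like type I gene, stayed between 0.616 and 1.76 CPM with overlap of all groups, and Krt24 had 5 reads, all in Smarcb1 KO replicate 2.

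Hair keratins were close to absent. The 14 genes of the hair shaft had 12 to 49 reads together in each Smarcb1 KO library, 41 to 53 in each Arid2 KO library and 28 to 32 in each wild-type library, most of them on Krt83 (213 reads over the 9 libraries). Since the Arid2 KO libraries were the deepest, these reads do not compare the groups. Scaled for depth, the sums were 0.325 to 1.11 CPM in Smarcb1 KO, 0.495 to 0.829 CPM in Arid2 KO and 0.797 to 0.971 CPM in wild type. Krt83 had 0.661, 0.588 and 0.244 CPM in Smarcb1 KO libraries, 0.242, 0.595 and 0.402 CPM in Arid2 KO libraries and 0.728, 0.598 and 0.653 CPM in wild type. All Arid2 KO libraries lay below wild type, by a narrow margin and without a call (-0.68, SE 0.43, edgeR adjusted p = 0.507). It shares 23.2% of its 50-base stretches with other genes, mostly Krt86, which had 2 reads. Krt33a, Krt34 and Krt82 had 0 reads in every library, and the other 10 untested hair genes had 1 to 40 reads in all.

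The 8 keratins of the root sheath and companion layer had 7 to 37 reads in each Smarcb1 KO library, 13 to 41 in each Arid2 KO library and 14 to 18 in each wild-type library. Scaled for depth, the sums were 0.178 to 0.837 CPM in Smarcb1 KO, 0.203 to 0.546 CPM in Arid2 KO and 0.415 to 0.516 CPM in wild type. Krt75, of the companion layer and the only tested one, had 0, 0.430 and 0.108 CPM in Smarcb1 KO libraries, 0.165, 0.125 and 0.369 CPM in Arid2 KO libraries and 0.334, 0.370 and 0.178 CPM in wild type, with overlap of all groups. Gm44460 overlaps Krt75 on the other strand. Krt74 had 0 reads. The 7 hair follicle markers that are not keratins summed to 2.19, 10.2 and 3.46 CPM in Smarcb1 KO libraries, 30.1, 2.57 and 6.38 CPM in Arid2 KO libraries and 2.396, 5.29 and 3.17 CPM in wild type. Between 5 and 6 of them had reads in each library, and Hoxc13, a regulator of hair-shaft genes, had 0 counts in all 9. The 2 highest sums were in the libraries with thymus markers, where Lef1, which developing T cells also make, had 7.17 CPM (Smarcb1 KO replicate 2) and 24.97 CPM (Arid2 KO replicate 1).

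Genes that tie keratins to the cell cortex were examined as a list of 17 linkers and desmosome genes, of which 15 were tested. For Smarcb1 KO against wild type 0 rose and 2 fell: Fam83h, a keratin-binding scaffold, and Pkp3, a desmosomal plakophilin. Of all genes, 2.15% rose and 5.74% fell in this comparison. Fam83h had 13.8, 19.4 and 17.0 CPM in Smarcb1 KO libraries, against 34.7, 32.6 and 26.8 CPM in wild type (-0.91, SE 0.16, edgeR adjusted p = 0.0145). Pkp3 had 17.8, 26.2 and 23.0 CPM in Smarcb1 KO libraries, against 35.8, 37.4 and 31.9 CPM in wild type (-0.65, SE 0.14, edgeR adjusted p = 0.0301). Both were below every wild-type library. The list's median log2 fold change was -0.04, beside 0.05 for all genes.

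For Smarcb1 KO against Arid2 KO, 0 of the 15 rose and 2 fell (6.95% and 9.32% of all genes), Fam83h (-0.61, SE 0.16, edgeR adjusted p = 0.034) and Plec. Plec encodes plectin, which links intermediate filaments to junctions. It had 46.1, 103.6 and 72.7 CPM in Smarcb1 KO libraries, against 153.3, 162.1 and 167.0 CPM in Arid2 KO libraries (-1.12, SE 0.24, edgeR adjusted p = 0.021). The list's median was -0.33, beside 0.003 for all genes. For Arid2 KO against wild type 0 of 15 rose or fell, with 2 at an unadjusted p under 0.05. None of 8 hemidesmosome genes was called in any comparison by edgeR, with 2, 0 and 0 at an unadjusted p under 0.05 for Smarcb1 KO against wild type, Smarcb1 KO against Arid2 KO and Arid2 KO against wild type.

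Among 13 intermediate filament genes that are not keratins, 2 fell and 0 rose for Smarcb1 KO against Arid2 KO, where 9.32% of all genes fell and 6.95% rose. By edgeR 0 changed in the other comparisons, with 3 and 5 at an unadjusted p under 0.05 for Smarcb1 KO against wild type and Arid2 KO against wild type. Vim, the filament of mesenchymal cells, had 98.6, 132.5 and 130.3 CPM in Smarcb1 KO libraries, against 180.9, 178.1 and 217.4 CPM in Arid2 KO libraries (-0.67, SE 0.20, edgeR adjusted p = 0.048). Nefl, a neurofilament, had 0.0254, 0.158 and 0.352 CPM in Smarcb1 KO libraries, against 1.27, 2.38 and 4.22 CPM in Arid2 KO libraries (-3.87, SE 0.79, edgeR adjusted p = 0.0173). Neither gene overlapped between these groups.

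Of 12 genes of the epithelial surface, 2 fell for Smarcb1 KO against wild type, the tight-junction genes Cldn3 and Cldn7, where 5.74% of all genes fell. Cldn3 had 19.8, 42.1 and 34.0 CPM in Smarcb1 KO libraries, 95.7, 119.9 and 102.6 CPM in Arid2 KO libraries and 111.4, 110.6 and 106.6 CPM in wild type. All 3 Smarcb1 KO libraries lay below every other library. The log2 fold changes against wild type were -1.78 (SE 0.24) for Cldn3 and -0.50 (SE 0.11) for Cldn7 (edgeR adjusted p = 0.00597 and 0.0304). For Smarcb1 KO against Arid2 KO, 3 fell (Cdh16, Cldn3 and Muc1), where 9.32% of all genes fell, and Prom1 rose. Epcam and Cdh1, which mark epithelial cells in general, were not called in any comparison and lay between 311.1 and 408.1 CPM in every library.

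Of 13 tested regulators of epithelial genes, 1 fell for Smarcb1 KO against Arid2 KO, beside 9.32% of all genes: Esrp2, an epithelial splicing factor (-0.56, SE 0.17, edgeR adjusted p = 0.0486). None changed in the other comparisons, with 2 and 0 at an unadjusted p under 0.05 for Smarcb1 KO against wild type and Arid2 KO against wild type. Trp63, the p63 factor of basal cells, lay between 25.7 and 39.3 CPM in all libraries, Smarcb1 KO replicate 1 included, where Krt5 had 0 counts.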

How the data were processed

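RNA-seq counts per gene from 9 libraries of mouse thyroid (TRIzol extraction, TruSeq RNA kit, per the labels' protocols) were used as the authors deposited them, as raw read counts for 33924 genes. STAR 2.4, HTSeq 0.6.1, DESeq2 and the mm9 build are named per the submitters' processing notes, and the strand setting of the counting is not given in the sources used here. If strand was not used, reads of overlapping antisense genes are included.

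Groups came from the genotype labels. Counts were analysed with edgeR 4.0.16 in R 4.3.3 (TMM scaling, filterByExpr, quasi-likelihood F test), with 1 fit over all 9 libraries and Benjamini-Hochberg adjustment over the 17079 genes tested, called under 0.05. limma 3.58.1 (voom) and DESeq2 1.42.0 were alternatives. The standard error (SE) is the log2 fold change divided by the root of F, and CPM are scaled by TMM. Lengths, GC contents and shared 50-base stretches came from GENCODE M21 (GRCm38) transcripts, and promoters from RefSeq (GRCm38.p6). The test was checked on simulated counts. For Arid2 KO against wild type, Smarcb1 KO against wild type and Smarcb1 KO against Arid2 KO, it called 35, 36 and 40 of 100 2-fold changes. It called 79, 78 and 76 of 100 4-fold changes, with 5, 6 and 8 false calls. The lack of a call therefore does not show the lack of a 2-fold change. No 2 libraries of the same group agreed within sampling noise.

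The members, classes and gene lists were chosen with earlier results of these data known. Named in the text are all simple keratins, up to 6 tested members with the highest mean CPM in each other class, any keratin called, and list genes that were called or mark a neighbouring tissue. Count intervals and floors (3 counts) cover counting error only. The result of 1 gene of the epithelial surface list is not reported here.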

Additional observations from a re-analysis of the deposited data

How the results depend on the processing

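Results were recomputed under 21 alternatives, 9 of which leave out 1 library. Of the fold changes, 33 had a value under all 21, 19 under 20 and 2 under 19, since low keratins did not pass every filter. No paired analysis was possible because the labels give each library its own identifier and no replicate numbers shared between groups. With DESeq2, 3 keratins were called lower for Smarcb1 KO against wild type (Krt7, Krt19 and Krt80), 2 lower (Krt7 and Krt19) and 1 higher (Krt18) for Smarcb1 KO against Arid2 KO, and 2 lower (Krt42 and Krt80) for Arid2 KO against wild type. For Smarcb1 KO against Arid2 KO, 1 was higher (Krt18) with the GC trend removed, and 1 was lower (Krt19) with limma-voom and with a minimum of 1 CPM in 3 libraries. The shares of all genes called under these alternatives are not given here. Without both libraries with thymus markers, 6 were lower for Smarcb1 KO against wild type and 3 for Smarcb1 KO against Arid2 KO (12.6% and 21.9% of all genes were called). Leaving out 1 library at a time gave 0 to 6 and 0 to 3 lower in these comparisons, the higher counts without Smarcb1 KO replicate 2, where 14.7% and 25.5% of all genes were called. Over all genes, calls ranged from 192 to 2777 for Smarcb1 KO against wild type (1349 in the reported fit), from 145 to 4411 for Smarcb1 KO against Arid2 KO (2779) and from 5 to 888 for Arid2 KO against wild type (95). Without both libraries with thymus markers, the fitted log2 fold change changed sign for Krt14 (-2.17), Krt17 (-1.04), Krt18 (-0.16), Krt4 (-4.62) and Krt5 (-1.51) for Smarcb1 KO against wild type. It also did so for Krt14 (-2.46), Krt17 (-0.44), Krt4 (-3.75), Krt5 (-1.85) and Krt83 (-0.15) for Smarcb1 KO against Arid2 KO. It also did so for Krt15 (0.15) and Krt17 (-0.60) for Arid2 KO against wild type. With limma-voom, the fitted log2 fold change changed sign for Krt14 (-0.32), Krt4 (-2.28) and Krt5 (-2.05) for Smarcb1 KO against wild type. It also did so for Krt14 (-0.92), Krt17 (-0.999), Krt4 (-0.97) and Krt5 (-2.81) for Smarcb1 KO against Arid2 KO. With the parathyroid covariate, the fitted log2 fold change changed sign for Krt15 (0.20) and Krt79 (0.49) for Smarcb1 KO against wild type. It also did so for Krt15 (0.76), Krt17 (-0.22), Krt75 (0.091), Krt79 (0.23) and Krt80 (0.23) for Smarcb1 KO against Arid2 KO. With the GC trend removed, the fitted log2 fold change changed sign for Krt222 (-0.072) and Krt83 (0.087) for Smarcb1 KO against wild type. It also did so for Krt8 (0.19) and Krt80 (0.011) for Smarcb1 KO against Arid2 KO. It also did so for Krt19 (-0.024) for Arid2 KO against wild type. Leaving out 1 library at a time, the range crossed 0 for Smarcb1 KO against wild type for Krt1 (-0.10 to 0.71), Krt14 (-2.12 to 2.33), Krt15 (-2.70 to 0.30), Krt17 (-0.99 to 4.53), Krt18 (-0.11 to 0.35), Krt4 (-4.59 to 0.94), Krt5 (-1.47 to 2.01) and Krt79 (-1.20 to 0.23). Leaving out 1 library at a time, the range crossed 0 for Smarcb1 KO against Arid2 KO for Krt14 (-2.73 to 1.73), Krt15 (-2.60 to 0.90), Krt17 (-4.21 to 4.51), Krt4 (-3.50 to 2.32), Krt5 (-2.61 to 1.05) and Krt75 (-1.99 to 0.32). Leaving out 1 library at a time, the range crossed 0 for Arid2 KO against wild type for Krt1 (-0.75 to 0.068), Krt15 (-1.18 to 0.27), Krt17 (-0.56 to 3.76), Krt19 (-0.046 to 0.14), Krt7 (-0.27 to 0.0042) and Krt79 (-0.19 to 0.94). The cause of these changes was not tested. Krt42, Krt4 and the hair keratins rest on few reads in most libraries, which limits what could be called.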
